A study of Mus musculus with 12 samples.

Results

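Complex I of the respiratory chain, NADH:ubiquinone oxidoreductase, was examined in mouse brain as 43 protein-coding genes whose symbols begin with Ndufa, Ndufb, Ndufc, Ndufs, Ndufv or mt-Nd, among 55487 gene rows. The 8 assembly factors (Ndufaf) and Ndufs6 were left out by the rule, and each of the 43 passed its minimum of 10 normalized counts on average in both tissues. They are 36 nuclear genes and 7 genes of the mitochondrial genome. Ndufa4, a protein now assigned to cytochrome c oxidase, and its paralogue Ndufa4l2 belong to the set by symbol alone.

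The libraries came from total RNA of C57BL/6 mice and were sequenced by Illumina protocols. There were 3 libraries each of hippocampus labelled mTert KO (G1), hippocampus labelled mTert WT, cerebral cortex labelled mTert KO (G1) and cerebral cortex labelled mTert WT, called KO and WT here. Telomerase reverse transcriptase, Tert, is the catalytic subunit of telomerase, the enzyme that extends chromosome ends. The deposited data name the KO groups KO G1 Homo, which was taken as homozygous. The sources used here do not give the allele, the age or the sex of the mice. Nor do they tie the libraries to animals, so the p-values measure only the spread between libraries, part of which may be technical.

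Complex I takes electrons from NADH, passes them through a flavin and iron-sulfur clusters to ubiquinone, and pumps protons across the inner mitochondrial membrane. Its 7 core membrane subunits are encoded by mitochondrial DNA (mt-Nd genes), and its core subunits of the peripheral arm, which hold the flavin and the clusters, by nuclear genes, of which 6 are described (Ndufs1, Ndufs3, Ndufs7, Ndufs8, Ndufv1 and Ndufv2). The other 30 nuclear genes were taken as accessory. Neurons depend heavily on the respiratory chain, and brain mitochondrial RNA is abundant.

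Tert held 0, 6.31 and 0 normalized counts in KO hippocampus, against 147, 184 and 128 in WT hippocampus. In cortex it held 0 in each of the 3 KO libraries, against 206, 105 and 241 in WT. Depth was between 72401909 and 86639113 reads per hippocampus library and between 68424934 and 77972013 per cortex library. WT cortex library 2 stood apart, since the chi-square per gene was 102 and 93.9 against the other WT cortex libraries and 9.54 between those. The counts, ratios and shares of complex I genes and related lists in cortex are therefore given with and without that library. In hippocampus the chi-square per gene was 48.8 between WT libraries 1 and 2 and 10.9 to 20.4 for the other pairs within a group. Among tissue markers, the hippocampal list and the cortical list had 0 of 7 genes absent from every library of their own tissue. In hippocampus the hippocampal list summed to between 90321 and 94449 normalized counts in KO and between 98977 and 115941 in WT. The cortical list there summed to between 152326 and 161047 in KO and between 129188 and 145846 in WT. A list of 9 striatal genes summed to between 32573 and 52446 normalized counts in KO cortex and between 12299 and 13461 in WT cortex. Of these 9 of 9 were called higher, against 1.28% of all genes. Choroid plexus genes summed to between 9254 and 18442 in KO hippocampus, against 352208, 12632 and 182522 in WT hippocampus libraries 1, 2 and 3. In cortex they summed to between 2606 and 11483 in KO and between 1500 and 1776 in WT. The part of these tissue differences in the results below was not tested.

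In hippocampus, 5 of the 6 core nuclear genes rose in KO and 0 fell. The highest fold change was that of Ndufs1, the largest subunit and a carrier of iron-sulfur clusters, followed by Ndufv1, which binds NADH and the flavin. Of the 36 nuclear genes 14 rose and 0 fell, 38.9% against 14.1% of the 22337 genes tested. Their median log2 fold change, KO over WT, was 0.11, against 0.02 over all genes tested, and 34 of the 36 values were positive. A gene was called at an adjusted p below 0.05 from limma, fitted over all genes. KO lay above WT with no overlap between the groups for 21 of the 36 and below it for 1, where 24.3% and 21.5% of all genes did so. In either direction 29.2% of all genes were called, so changes were common in this tissue, and 15.1% of all genes fell.

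Ndufs1 (chromosome 1, 63143596 to 63176833, minus strand, GRCm38) had 10084, 10353 and 10048 normalized counts in KO hippocampus, against 8082, 8499 and 8245 in WT hippocampus. Every KO library lay above every WT library, and the log2 fold change was 0.30 ± 0.04 (SE, n = 3 each; limma adjusted p = 0.00118). Ndufv1 (chromosome 19, 4007384 to 4012806, minus strand) had 10238, 10721 and 10529 in KO hippocampus, against 8601, 8806 and 8399 in WT hippocampus. The groups did not overlap here either, and Ndufv1 rose by 0.29 ± 0.04 (limma adjusted p = 0.00153).

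Ndufv2, which carries an iron-sulfur cluster next to Ndufv1, had 6715, 6783 and 6613 normalized counts in KO hippocampus, against 5660, 6031 and 6051 in WT hippocampus. It rose by 0.18 ± 0.04 with groups apart (limma adjusted p = 0.0141).

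Ndufs7 and Ndufs8 carry the last clusters before ubiquinone. Ndufs7 had 4616, 4892 and 4500 normalized counts in KO hippocampus and 4094, 4233 and 4227 in WT hippocampus, a log2 fold change of 0.16 (limma adjusted p = 0.0326). Ndufs8 had 3724, 3683 and 3552 in KO hippocampus and 3379, 3372 and 3289 in WT hippocampus, a log2 fold change of 0.13 (limma adjusted p = 0.0468). Both rose with groups that did not overlap, but Ndufs8 stayed called in only 2 and Ndufs7 in 7 of the 14 alternative fits. Ndufs3, a core subunit that holds no cluster, had 5459, 5352 and 5118 in KO hippocampus and 4840, 4842 and 5031 in WT hippocampus. Its KO libraries were also above every WT library, yet its value of 0.11 ± 0.04 missed the threshold (limma adjusted p = 0.0747).

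Of the 30 accessory genes 9 rose in KO hippocampus, 30.0% against the same 14.1% background, with a median log2 fold change of 0.08. Ndufa5, a subunit of the peripheral arm, had 4206, 4177 and 4280 normalized counts in KO hippocampus and 3660, 3657 and 3459 in WT hippocampus. It rose by 0.23 ± 0.04 (limma adjusted p = 0.0051), and no library of the groups overlapped. Ndufb8, a membrane-arm subunit often used as a blot marker of assembled complex I, had 7829, 7879 and 7742 in KO hippocampus and 6793, 7051 and 7080 in WT hippocampus, a rise of 0.16 ± 0.04 (limma adjusted p = 0.0124).

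Ndufa9, a peripheral-arm subunit beside the ubiquinone site, rose by 0.18 ± 0.04. Ndufb3 and Ndufb6 of the membrane arm rose by 0.21 ± 0.06 and 0.15 ± 0.04. Ndufs4, whose loss causes a Leigh-like encephalopathy in mice and humans, had 3076, 3269 and 3050 normalized counts in KO hippocampus and 2709, 2853 and 2880 in WT hippocampus, a rise of 0.15 ± 0.05 with groups apart (limma adjusted p = 0.0442). Ndufa10, Ndufa4 and Ndufab1, the last also the mitochondrial acyl carrier protein, completed the 9 with 0.16, 0.13 and 0.12. Those 3 lay near the threshold (limma adjusted p = 0.0443, 0.0481 and 0.0499).

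The other accessory genes did not pass. Ndufa12, Ndufa7 and Ndufb2 had the largest p-values, with log2 fold changes of 0.02, 0.02 and 0.02. Ndufa4l2, which in other cells is induced under low oxygen, went the other way without being called, with 135, 164 and 169 normalized counts in KO hippocampus and 260, 193 and 196 in WT hippocampus. All 3 KO libraries were below every WT library, the log2 fold change was -0.46 ± 0.16 and the limma adjusted p was 0.0672. Ndufa1 was the other gene with a negative value, -0.07 ± 0.06.

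**Figure D1:**
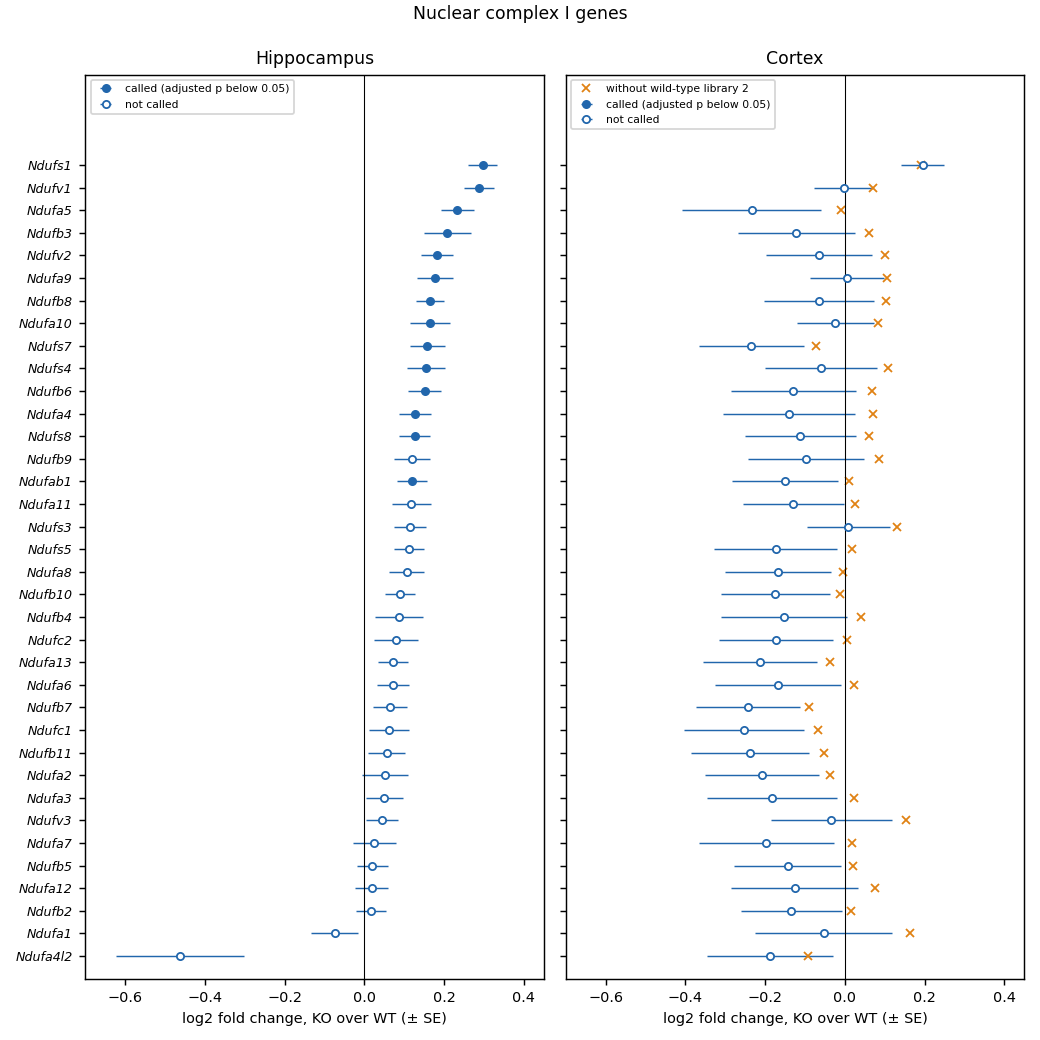
Log2 fold change, KO over WT, with SE (n = 3 libraries per group) for the 36 nuclear complex I genes in hippocampus (left) and cortex (right), ordered by the hippocampus value; filled points were called by limma, open points were not, and orange crosses give cortex without WT library 2. In hippocampus 14 points are filled and 34 of 36 lie above 0, while in cortex 33 of 36 lie below 0 and the crosses have a median of 0.02.

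Among the nuclear genes, the more abundant had the larger log2 fold changes in hippocampus, and exonic length went with them only weakly. The hippocampus log2 fold change had a Spearman rho of 0.53 with the mean level and 0.15 with exonic length across the 36 genes, which share their libraries and scaling. Among members with up to 2000 bp of merged exon 6 of 23 rose, where 13.4% of protein-coding genes of that length did. Between 2000 and 4000 bp 6 of 8 rose, where 23.6% did, and above 4000 bp and up to 12000 bp 2 of 5 rose, where 16.3% did. With the trend along exonic length removed from every library, 10 of the 36 rose, 27.8% against 16.7% of all genes.

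Ndufs1, Ndufv1 and Ndufa5 were called in all 14 alternative fits, Ndufv2 in 12, Ndufb8 in 11, Ndufa9 in 9 and Ndufb6 in 8. The other accessory calls held in fewer fits, Ndufb3 in 7, Ndufa10 in 6, Ndufs4 in 5, and Ndufa4 and Ndufab1 in 3 each. Leaving out a single hippocampus library gave counts between 3 and 13 in place of 14. The count was 8 without WT library 1, the one richest in choroid plexus RNA, where 11.5% of all genes rose. It was 6, 3 and 6 without KO libraries 1, 2 and 3, where 8.55%, 6.54% and 8.16% of all genes rose, and 5 without WT library 3, where 5.84% did. Without KO library 2 the share of the 36 that rose, 8.33%, was thus near that of all genes, as it was with no variance trend, 8.33% against 7.68%. Microglial markers were called higher in KO hippocampus for 5 of 5 genes, where 14.1% of all genes were. Their sum was 20169 to 20708 in KO and 13883 to 16770 in WT. Oligodendrocyte markers were higher for 4 of 5, astrocyte markers for 3 of 5, and pan-neuronal markers were higher for 2 and lower for 1 of 6. Endothelial markers were called for 0 of 5, with a median log2 fold change of -0.34. They summed to 14042 to 14085 in KO and 11730 to 28274 in WT. The part of cell makeup in the complex I values was not tested, and in bulk tissue fewer cells of a type and less RNA per cell cannot be told apart.

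Levels per kb of exon put the genes in a like order in KO and WT. In KO hippocampus Ndufb9 was the highest accessory gene at 7250 ± 253 normalized counts per kb (WT 6673 ± 255), next to Ndufa4 at 6763 ± 178 (WT 6193 ± 174), and in KO the libraries of these neighbours overlapped. Among the 6 core genes Ndufv1 stood highest at 3985 ± 92.5 in KO and 3266 ± 77.3 in WT, and Ndufs1 lowest at 1257 ± 20.6 in KO and 1023 ± 26.0 in WT. Ndufa4l2 was the lowest of the 36, at 142 ± 17.0 in KO and 198 ± 35 in WT. The order uses all annotated exons merged, so that genes with long alternative exons, such as Ndufab1 and Ndufb2, rank low. Per kb of the principal transcript instead, Ndufa4 was the highest accessory gene in KO hippocampus at 15311 ± 404, above Ndufb8 at 11495 ± 103 and Ndufb9 at 10618 ± 370. On that scale Ndufv1 was still the highest core gene in KO, while Ndufs8 at 3634 ± 89.4 was below Ndufs1 at 3819 ± 62.6.

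Promoter sequences were shown for genes that rose together in hippocampus, to set their composition side by side. Of the called nuclear genes, 5 had the 250 bases before a RefSeq start (GRCm38.p6) free of annotated exons, and the 3 with the smallest p are printed 5′ to 3′ on the minus strand of each. They lie at chr19:44555443-44555692 for Ndufb8, chr17:66101560-66101809 for Ndufv2 and chr6:126849145-126849394 for Ndufa9. No base is in capitals because the exact letters searched below do not occur in these windows.
Ndufb8: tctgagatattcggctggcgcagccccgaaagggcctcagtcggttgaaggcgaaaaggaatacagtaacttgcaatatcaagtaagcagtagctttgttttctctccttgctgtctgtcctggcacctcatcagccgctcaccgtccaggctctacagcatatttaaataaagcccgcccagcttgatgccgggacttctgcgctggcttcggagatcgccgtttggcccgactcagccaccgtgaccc
Ndufv2: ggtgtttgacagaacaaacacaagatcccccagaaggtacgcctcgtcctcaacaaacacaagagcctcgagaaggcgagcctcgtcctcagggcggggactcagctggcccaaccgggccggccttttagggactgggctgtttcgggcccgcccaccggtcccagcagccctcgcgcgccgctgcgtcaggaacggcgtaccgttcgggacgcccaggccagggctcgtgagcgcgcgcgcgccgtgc
Ndufa9: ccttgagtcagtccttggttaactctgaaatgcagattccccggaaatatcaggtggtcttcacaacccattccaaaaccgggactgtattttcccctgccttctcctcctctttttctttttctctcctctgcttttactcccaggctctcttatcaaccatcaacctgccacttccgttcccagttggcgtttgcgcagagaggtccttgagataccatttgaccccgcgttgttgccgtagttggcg
The Ndufv2 window was the richest in CG dinucleotides with 28, against 15 for Ndufb8 and 9 for Ndufa9, and its GC content was 68.0%. A single fixed form of the ETS-family motif, CCGGAAG, was searched on both strands. That family includes a known activator of respiratory chain genes. Shorter or variant ETS sites were not searched, so a window without the fixed form may still hold such a site. The fixed form occurred in 3 of the 32 nuclear members with a listed promoter (Ndufb6, Ndufb7 and Ndufs3), 9.38% against 7.83% of 27025 genes, and in Ndufb6 among the 13 of them that rose. A match describes the letters only.

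In hippocampus 6 of the 7 mitochondrially encoded subunits rose in KO and 0 fell, against 14.1% of all genes rising. Their median log2 fold change was 0.38, larger than the 0.11 of the nuclear genes, and mt-Nd3 was the one that did not pass. The mt-Nd genes together took 1.65% ± 0.15 of all normalized counts in KO hippocampus and 1.24% ± 0.07 in WT hippocampus (SD, n = 3 each). In cortex that share was 1.55% ± 0.08 in KO and 1.56% ± 0.26 in WT, with groups that overlapped. Without library 2 it was 1.41% ± 0.06 in WT cortex (n = 2), below every KO cortex library. The difference between the nuclear and the mitochondrial set was not tested.

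The largest rise was that of mt-Nd5 (chromosome M, 11742 to 13565), the distal proton-pumping subunit. It held 304252, 288111 and 330626 normalized counts in KO hippocampus, against 202835, 193904 and 203512 in WT hippocampus. The groups were far apart, and mt-Nd5 rose by 0.62 ± 0.07 (limma adjusted p = 0.000662). Next was mt-Nd4l, a small membrane subunit, with 41162, 40315 and 50347 in KO hippocampus, against 28459, 28825 and 28971 in WT hippocampus. It rose by 0.60 ± 0.08 (limma adjusted p = 0.00171).

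mt-Nd2, a pumping subunit, had 193181, 192336 and 220839 normalized counts in KO hippocampus and 157114, 154542 and 157965 in WT hippocampus, a rise of 0.37 ± 0.07 (limma adjusted p = 0.00674). mt-Nd4, the other large pumping subunit, had 320654, 311280 and 369181 in KO hippocampus and 255937, 252194 and 258132 in WT hippocampus, a rise of 0.38 ± 0.08 (limma adjusted p = 0.00961). mt-Nd1, which joins the arms at the ubiquinone site, had 278540, 273897 and 337817 in KO hippocampus and 237939, 224825 and 236994 in WT hippocampus, a rise of 0.34 ± 0.09 (limma adjusted p = 0.0259). In all of these KO library 3 was the highest and every KO library exceeded every WT library.

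mt-Nd6, the only one of the set encoded on the light strand, had 87883, 78737 and 102425 normalized counts in KO hippocampus and 72012, 59682 and 68427 in WT hippocampus, a rise of 0.42 (limma adjusted p = 0.0219). mt-Nd3, which forms a loop near the ubiquinone site, had 11014, 10919 and 13388 in KO hippocampus and 12246, 11383 and 11871 in WT hippocampus. Its groups overlapped and its log2 fold change was -0.01 ± 0.08 (limma adjusted p = 0.921).

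**Figure D2:**
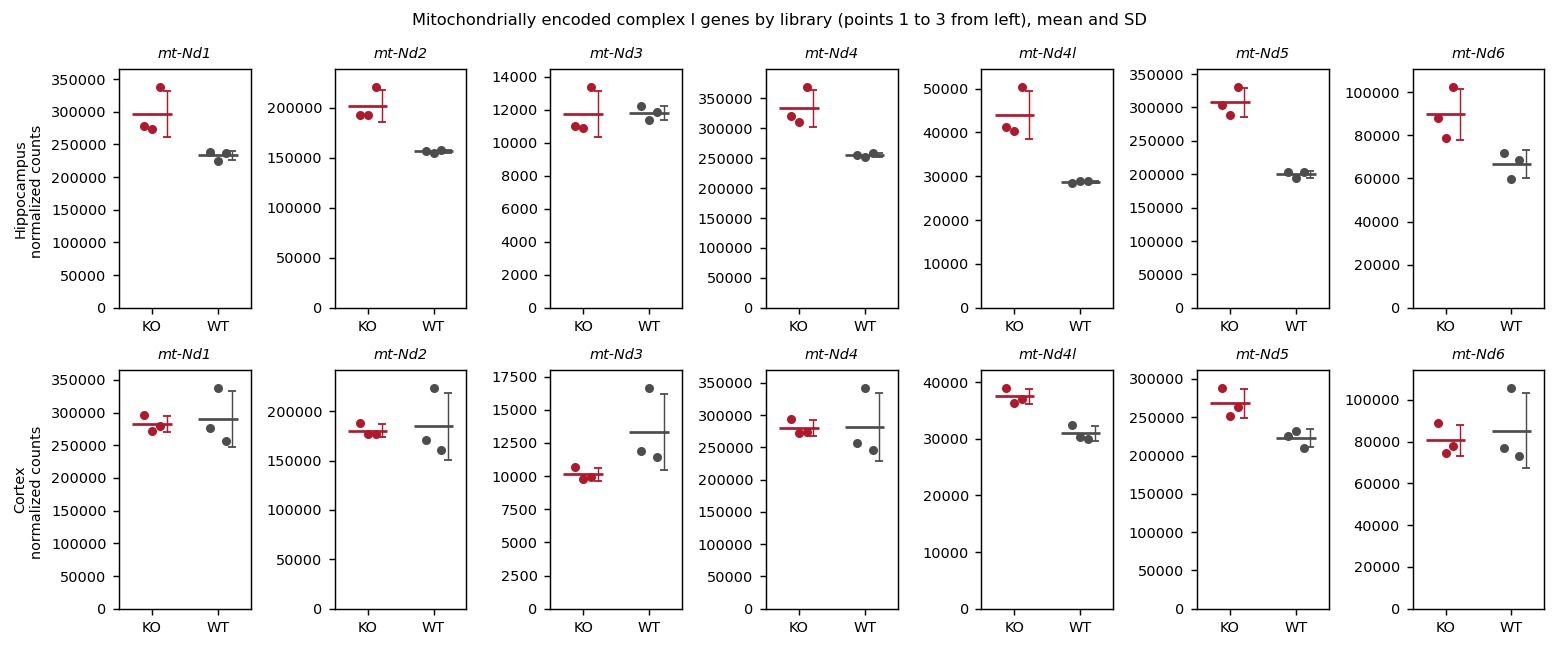
Normalized counts of the 7 mt-Nd genes in each library, KO (red) left of WT (grey), hippocampus above and cortex below; points are libraries 1 to 3 from the left, horizontal lines are means and error bars SD (n = 3). In hippocampus the KO points lie above all WT points for 6 genes but not for mt-Nd3, and in cortex WT library 2 is the highest of the 6 libraries for 5 genes but not for mt-Nd4l and mt-Nd5.

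mt-Nd2, mt-Nd4l and mt-Nd5 were called in 14 of 14 alternative fits, mt-Nd4 in 13, and mt-Nd1 and mt-Nd6 in 9. Without KO library 3, the highest of the hippocampus libraries, 4 genes rose, where 8.16% of all genes did, and the median was 0.31. Without WT library 3 it was 3 genes, where 5.84% of all genes rose, and the median was 0.39.

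The whole of mt-Nd4l (chrM:9877-10173) and the first 150 bases of mt-Nd3 (chrM:9459-9608) are printed because both are nearly identical to nuclear copies, so that reads could not be assigned to them alone. They are given 5′ to 3′ on the plus strand of GRCm38 from the GENCODE transcripts. Capitals mark the 7 bases that mt-Nd4l shares with the start of mt-Nd4 and, in mt-Nd3, the single base that differs from its copy.
mt-Nd4l: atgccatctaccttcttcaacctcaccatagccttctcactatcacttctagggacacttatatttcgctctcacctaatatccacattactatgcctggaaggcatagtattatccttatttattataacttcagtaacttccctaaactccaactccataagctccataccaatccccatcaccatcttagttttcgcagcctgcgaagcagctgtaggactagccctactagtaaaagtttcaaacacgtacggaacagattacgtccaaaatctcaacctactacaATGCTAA
mt-Nd3: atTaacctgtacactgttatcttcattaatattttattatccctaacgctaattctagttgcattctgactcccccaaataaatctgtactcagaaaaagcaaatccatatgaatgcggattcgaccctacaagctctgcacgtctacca
Gm10222 on chromosome 1 matched mt-Nd4l over 294 of its 297 bases at 100% identity. It held 44268, 43470 and 54506 normalized counts in KO hippocampus and 30667, 30940 and 31043 in WT hippocampus, with a log2 fold change of 0.61. Gm28438 matched mt-Nd3 over 345 of 348 bases at 99.7% and had 11508, 11379 and 14008 in KO hippocampus and 12640, 11677 and 12134 in WT hippocampus, with a log2 fold change of 0.01. Each copy therefore carried values close to those of its mitochondrial gene in every library, and the sources used here do not say whether reads were counted in both.

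Gm28439 matched 876 of the 1378 bases of mt-Nd4 at 100% identity. It had 83658, 81575 and 115749 normalized counts in KO hippocampus and 69430, 64431 and 67207 in WT hippocampus, with a log2 fold change of 0.47. The levels of mt-Nd3, mt-Nd4 and mt-Nd4l are uncertain for this reason. The best copies of mt-Nd2 and mt-Nd5, Gm13339 and Gm4076, were 96.7% and 95.2% identical and held fewer than 500 counts in any library. mt-Nd5 and mt-Nd6 overlap by 14 bases on opposite strands, and the sources used here do not say whether the libraries were stranded, so reads of mt-Nd6 cannot be told from reads antisense to its strand. Among nuclear members, 7 had a copy elsewhere of at least 95% identity (Ndufa12, Ndufab1, Ndufb3, Ndufb4, Ndufb11, Ndufs3 and Ndufs5) and 15 had exons overlapping another gene, among them Ndufs1, Ndufa9 and Ndufb8, and their values are uncertain to that extent.

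In cortex no complex I gene passed the test. None of the 36 nuclear genes and none of the 7 mt-Nd genes was called by limma, against 1.28% higher, 0.661% lower and 1.94% in either direction of the 21945 genes tested, and edgeR also called 0 and 0. At an unadjusted p under 0.05 there were 1 nuclear gene and 3 mt-Nd genes, where 4040 of the 21945 genes tested passed. The nuclear median log2 fold change was -0.14, with 33 of 36 values negative, and the mt-Nd median was -0.02, against -0.01 over all genes tested. Without WT library 2 both medians were positive, 0.02 and 0.12, and the mt-Nd median was positive also with quantile normalization, 0.025, and with the length trend removed, 0.12.

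WT cortex library 2 was the highest of the 6 cortex libraries for 35 of the 36 nuclear genes. Its value was a median of 1.43 times the mean of WT libraries 1 and 3, with a range of 0.993 to 1.59. KO lay above every WT library for 1 nuclear gene and below every WT library for 3, where 16.0% and 12.2% of all genes did so. Ndufa5 was at the top of the range of ratios, with 3057, 3116 and 3178 normalized counts in KO cortex, against 3135, 4992 and 3142 in WT cortex libraries 1, 2 and 3. Only library 2 stood out, and the other WT libraries lay within the KO range. Ndufs1 was at the bottom of it, with 9004, 9497 and 8919 in KO cortex, against 8036, 7942 and 7960 in WT cortex. Here every KO library was above every WT library, and the log2 fold change was 0.20 ± 0.05 (limma adjusted p = 0.125).

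The excess in WT library 2 went with exonic length across the nuclear genes (Spearman rho of -0.50 over 36 genes from the same 3 libraries). Members with up to 2000 bp of exon had a median ratio of 1.47, where protein-coding genes of that length had 1.26. Those between 2000 and 4000 bp had 1.35 against 1.07, and those above 4000 bp and up to 12000 bp had 1.37 against 0.893. The ratio of the mt-Nd genes ranged from 0.971 for mt-Nd4l to 1.43 for mt-Nd3. The cause of the difference was not tested.

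**Figure D3:**
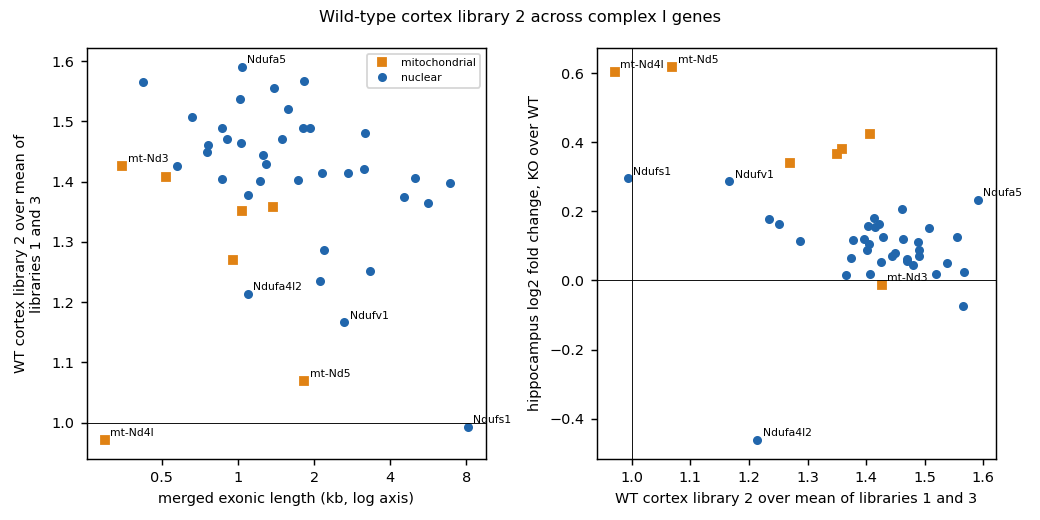
Left, the normalized count in WT cortex library 2 divided by the mean of WT cortex libraries 1 and 3, against merged exonic length in kb (log axis), for 36 nuclear genes (blue) and 7 mt-Nd genes (orange); right, the hippocampus log2 fold change, KO over WT, against the same ratio. Most genes lie between 1.2 and 1.6, while mt-Nd4l, Ndufs1, mt-Nd5 and Ndufv1 lie lower, at 0.971, 0.993, 1.07 and 1.17, with hippocampus values of 0.60, 0.30, 0.62 and 0.29.

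Without WT library 2, 4 of the 36 nuclear genes rose in KO cortex, against 11.0% of all genes, and 0 fell, against 10.3%. Of the 6 core genes 3 rose, Ndufs1 by 0.19 ± 0.03 (limma adjusted p = 0.00542), Ndufs3 by 0.13 and Ndufv2 by 0.10, and of the 30 accessory genes 1 rose, Ndufv3 by 0.15, named after its value was seen. The share over all nuclear genes was thus near the background. KO lay above the remaining WT libraries without overlap for 15 of the 36 and below them for 3, where 25.0% and 24.8% of all genes did so. Among the accessory genes with the smallest p in the full set, Ndufb7, Ndufc1 and Ndufb11 had log2 fold changes of -0.24, -0.25 and -0.24 with library 2 and -0.09, -0.07 and -0.05 without it.

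For the mt-Nd genes, the cortex values with library 2 differed in direction within the set. mt-Nd4l had 38978, 36405 and 37088 normalized counts in KO cortex, against 32450, 30341 and 30031 in WT cortex, a log2 fold change of 0.28 ± 0.06 with groups apart (limma adjusted p = 0.0759). mt-Nd5 had 288234, 251987 and 263978 in KO cortex, against 225729, 232641 and 209394 in WT cortex, a log2 fold change of 0.27 ± 0.08, also with groups apart (limma adjusted p = 0.159). mt-Nd3 had 10677, 9766 and 9934 in KO cortex, against 11889, 16648 and 11452 in WT cortex, below every WT library, with a log2 fold change of -0.38 ± 0.14 (limma adjusted p = 0.219).

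Without library 2, mt-Nd5 rose by 0.30 ± 0.05 (limma adjusted p = 0.00548), mt-Nd4l by 0.26 ± 0.04 (limma adjusted p = 0.00244), mt-Nd4 by 0.15 and mt-Nd2 by 0.12. mt-Nd3 fell by 0.21 ± 0.04 on the log2 scale (limma adjusted p = 0.0096). mt-Nd1 and mt-Nd6 were not called, with log2 fold changes of 0.09 and 0.10. These 4 rises and 1 fall compare with 11.0% and 10.3% of all genes.

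**Figure D4:**
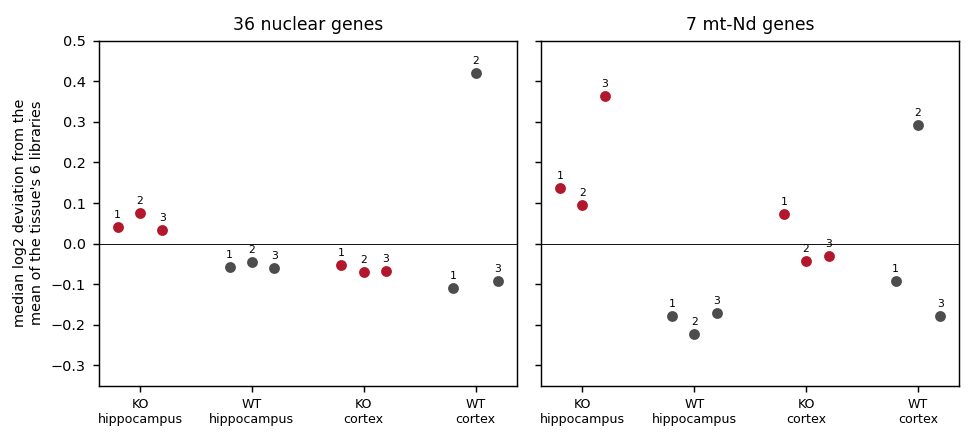
Median log2 deviation of the 36 nuclear genes (left) and the 7 mt-Nd genes (right) in each library from the mean of the 6 libraries of its tissue, KO (red) left of WT (grey); the digit is the library number. KO hippocampus lies above 0 and WT hippocampus below it in both panels, and WT cortex library 2 stands at 0.42 for the nuclear and 0.29 for the mt-Nd genes, above the other 5 cortex libraries.

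The balance among the mitochondrial transcripts was compared within each library, a choice made after the values were seen. The ratio of mt-Nd4l to mt-Nd3 was 3.73 ± 0.03 in KO hippocampus and 2.43 ± 0.10 in WT hippocampus (SD, n = 3 each). In cortex it was 3.70 ± 0.05 in KO and 2.39 ± 0.50 in WT, where library 2 had 1.82 and the others 2.73 and 2.62. The WT cortex mean without library 2 was 2.68 ± 0.08 (SD, n = 2). The groups did not overlap in either tissue, and a two-sided exact permutation test gave 0.1, the smallest p that 3 libraries against 3 allow. The ratio does not depend on the scaling of the libraries, and it includes any reads from the nuclear copies.

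The ratio of mt-Nd5 to mt-Nd2 was 1.52 ± 0.04 in KO hippocampus and 1.28 ± 0.02 in WT hippocampus, and 1.48 ± 0.05 in KO cortex and 1.22 ± 0.16 in WT cortex, again with groups apart and an exact permutation p of 0.1 in each tissue. WT cortex library 2 had 1.04, and the WT cortex mean without it was 1.31 ± 0.02 (SD, n = 2). The mt-Nd genes made up 33.2% ± 0.2 of the counts of all mitochondrial genes in KO hippocampus and 30.9% ± 0.3 in WT hippocampus. In cortex that share was 32.8% ± 0.2 in KO and 31.0% ± 0.6 in WT, or 31.3% ± 0.5 in WT without library 2 (n = 2). These shares, too, did not overlap between KO and WT in either tissue.

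**Figure D5:**
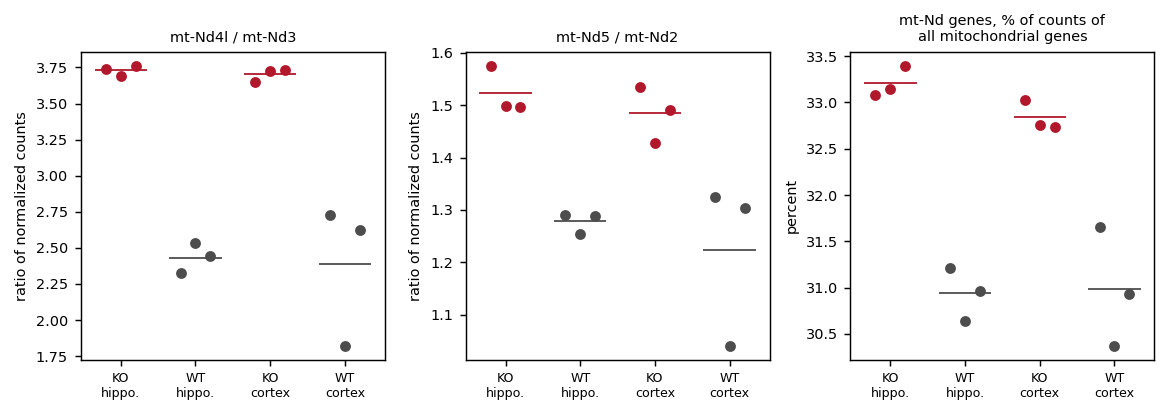
The ratio of mt-Nd4l to mt-Nd3 (left), the ratio of mt-Nd5 to mt-Nd2 (middle) and the percent of counts of all mitochondrial genes that fell on the mt-Nd genes (right), per library (points) with group means (lines), KO (red) left of WT (grey) in hippocampus and cortex; the vertical axes do not start at 0. In each panel and tissue the KO libraries lie above the WT libraries, and WT cortex library 2 has the lowest ratio of mt-Nd4l to mt-Nd3, 1.82.

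The difference of the KO effect between the tissues was tested as an interaction, the effect in hippocampus minus the effect in cortex. It was called for 0 of 36 nuclear and 0 of 7 mt-Nd genes by limma, against 0.963% called greater in hippocampus, 2.05% greater in cortex and 3.02% in either direction of the 21282 genes tested, and edgeR also called none of either. At an unadjusted p under 0.05 there were 3 nuclear and 6 mt-Nd genes, where 4817 of the 21282 genes tested passed. The effect was greater in hippocampus for all 7 mt-Nd genes, with a median difference of 0.37 on the log2 scale, and for 34 of 36 nuclear genes, with a median of 0.24, against 0.01 over all genes tested. The smallest p-values were those of Ndufv1 (difference 0.29 ± 0.08, limma adjusted p = 0.0811), mt-Nd5 (0.35 ± 0.11, limma adjusted p = 0.0984) and mt-Nd4l (0.33 ± 0.11, limma adjusted p = 0.112).

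Without WT cortex library 2 the interaction was called for 3 nuclear genes, all greater in hippocampus, where 3.06% of all genes were and 6.17% were greater in cortex. These were Ndufa5 (0.24, limma adjusted p = 0.0127), Ndufv1 (0.22, limma adjusted p = 0.0118) and Ndufs7 (0.23, limma adjusted p = 0.0333). No mt-Nd gene was called. The nuclear differences then ranged from -0.37 (Ndufa4l2) to 0.24 (Ndufa5), against -0.27 to 0.47 with that library. They were negative for Ndufa4l2, Ndufa1, Ndufv3, Ndufa12, Ndufs3 and Ndufb5, where 2 were negative with it. The mt-Nd differences ranged from 0.19 (mt-Nd3) to 0.34 (mt-Nd4l), against 0.33 to 0.49 with it. The hippocampus rises were thus not shown to differ from cortex for the set as a whole.

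Genes around complex I were counted from lists of related function. Of 17 complex I assembly factors 3 rose in KO hippocampus and 0 fell, 17.6% and thus near the 14.1% of all genes, with a median log2 fold change of 0.06. Ecsit, an assembly factor that also acts in innate immune signalling, had 2815, 3112 and 2991 normalized counts in KO hippocampus and 2578, 2580 and 2493 in WT hippocampus, a rise of 0.22 ± 0.05 (limma adjusted p = 0.0138). Ndufaf3 and Dmac1 rose by 0.22 and 0.21. Of the 4 subunits of complex II, succinate dehydrogenase, the catalytic subunits Sdha and Sdhb rose, by 0.19 and 0.26, whereas the membrane anchors Sdhc and Sdhd had log2 fold changes of 0.08 and 0.10 and were not called.

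Of 17 genes that copy or express mitochondrial DNA 3 rose in KO hippocampus and 0 fell, again 17.6% against 14.1% of all genes. Tfam, which packages mitochondrial DNA and starts its transcription, had 2406, 2521 and 2498 normalized counts in KO hippocampus and 2139, 2115 and 2161 in WT hippocampus, a rise of 0.21 ± 0.04 with groups apart (limma adjusted p = 0.00835). Lrpprc, which stabilizes mitochondrial messenger RNA, rose by 0.20, and Tfb2m, a mitochondrial transcription factor, by 0.25. Of the 8 other mitochondrially encoded genes, mt-Co1 and mt-Co2 of cytochrome c oxidase and mt-Cytb of complex III rose, by 0.37, 0.21 and 0.34, and 0 fell. The ribosomal RNAs mt-Rnr1 and mt-Rnr2 were not called, with log2 fold changes of 0.01 and 0.09. In cortex 0 genes of these 4 lists were called, against 1.94% of all genes in either direction. The interaction called 0, against 3.02% in either direction.

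Without WT cortex library 2, no assembly factor and no complex II gene was called in cortex. Of the 17 genes of mitochondrial DNA expression 2 then rose, Tfb2m by 0.25 and Fastkd5 by 0.43, and 2 fell, Twnk, the mitochondrial DNA helicase, by 0.27 and Fastkd2 by 0.21 on the log2 scale. Of the 8 other mitochondrially encoded genes, mt-Co1 and mt-Cytb rose, by 0.15 and 0.25, while mt-Rnr1 and mt-Rnr2 fell by 0.24 and 0.27 on the log2 scale. In this fit 11.0% of all genes rose and 10.3% fell. The interaction without that library called Dmac1, Sdha and Sdhb, each greater in hippocampus, by 0.32, 0.16 and 0.20. In that interaction fit 3.06% of all genes were called greater in hippocampus and 6.17% greater in cortex. The genes called without that library were named after their values were seen.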

How the data were processed

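Each tissue has 1 table of 55487 gene rows, in which the authors deposited a signal, named normalized counts. Within a library all values are whole multiples of 1 step (within 0.001; steps of 0.902 to 1.07), as read counts over a size factor would be. Whether that step is 1 read could not be verified for WT cortex libraries 1 and 2. The submitters' processing notes name STAR, HTSeq, DESeq2 and GRCm38; the sources used here give no versions, strandedness or handling of reads that match several genes. Because each table has its own scaling, levels were not compared between tissues.

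Symbols and coordinates came from the GENCODE annotation of GRCm38 (55227 rows matched, 260 did not). KO and WT were compared with limma 3.58.1 in R 4.3.3 on log2(normalized count + 1), with a variance trend, over every gene whose mean in the 6 libraries was 10 or more, with Benjamini-Hochberg adjustment at 0.05. Fold changes on that scale understate changes of low genes. The interaction took all 12 libraries as independent. Alternatives included edgeR 4.0.16 on the recovered reads (100% of values whole). The fits were tested on simulated data. BLAST 2.17.0 found copies. 1 gene that the rule admits is not reported here. A planned search of promoters for the NRF-1 motif is not reported here.

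The complex I members, the related lists and the marker lists were chosen with earlier results of these data known. Named genes were drawn from a set list. It held the mt-Nd and core members, the accessory members with the 8 smallest and 3 largest p per tissue, and the 5 smallest interaction p. It also held the extremes of level, members with overlaps or copies, and up to 3 called genes per related list. Not every gene on the list is described, above all in cortex and for the interaction.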

Additional observations from a re-analysis of the deposited data

Results flagged for a closer look

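Ndufs7, the core subunit that carries the last iron-sulfur cluster before ubiquinone, stood on opposite sides of WT in hippocampus and cortex. In hippocampus the KO libraries had 4616, 4892 and 4500 normalized counts, all above the WT libraries with 4094, 4233 and 4227. In cortex the KO libraries had 4071, 4122 and 4316, all below the WT libraries with 4435, 6145 and 4326. The lowest WT value and the highest KO value in cortex differ by less than the spread among KO libraries. The effect in hippocampus exceeded that in cortex by 0.39 on the log2 scale, and the limma interaction did not pass (adjusted p = 0.159). Without WT cortex library 2 the difference was 0.23 with an adjusted p of 0.0333. The Ndufs7 log2 fold change in cortex was then -0.07 (limma adjusted p = 0.231).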

How the results depend on the processing

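In place of the 14 nuclear genes that rose in hippocampus, 7 were called with no filter on low values (19.4%, against 7.05% of all genes) and 3 with no variance trend (8.33% against 7.68%), and 3 to 13 when single libraries were left out (8.33% to 36.1%, against 5.84% to 17.5%). The other settings gave 9 to 16 (25.0% to 44.4%, against 12.6% to 20.4% of all genes). Among them, the replicate block gave 9 (25.0% against 12.6%) and edgeR gave 11 (30.6% against 13.5%). Nuclear genes called lower numbered 0 in every setting but 1, Ndufa4l2, without WT library 2 (range 0 to 1 over left-out libraries). The hippocampus nuclear median of 0.11 was 0.16 with the length trend removed and 0.090 with edgeR. The median over all genes tested moved too, from 0.015 to 0.084 with the length trend removed and to -0.0059 with edgeR. The 6 mt-Nd calls were 4 with quantile normalization, 4 with no variance trend and 3 to 6 when single libraries were left out. In those fits 20.4%, 7.68% and 5.84% to 17.5% of all genes rose. In cortex the length trend removed gave 1 mt-Nd call, mt-Nd5, and left-out libraries gave 0 to 4 nuclear rises, 0 to 4 mt-Nd rises and 0 to 1 mt-Nd falls, all of the upper values without WT library 2. Leaving out single cortex libraries put mt-Nd2, at -0.02 with all of them, between -0.11 (without WT library 3) and 0.12 (without WT library 2), and it passed at 0.12. The interaction called 0 to 3 nuclear genes when libraries were left out. The cause was not tested. Over the genes called in hippocampus by the main fit, 188 values of the alternative fits kept direction and side of the threshold and 92 lost the call. Genes not called there are outside that tally, such as Ndufa8 and Ndufb9, each called higher in 2 of 14 alternative fits. Of the cortex values, all of mt-Nd genes, 81 kept both, 5 gained a call, 11 changed sign without one and 1 reversed. Same-numbered KO and WT libraries did not deviate together (correlations of -0.03, 0.00 and -0.06 in cortex and -0.03, 0.09 and -0.02 in hippocampus), so the numbers were not taken as pairs. Depth was ample for these genes, and 3 libraries per group limit the precision.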

Other observations

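Within the core subunits the ratio of Ndufs1 to Ndufs7 was 2.18 ± 0.06 in KO hippocampus and 1.98 ± 0.03 in WT hippocampus, and 2.19 ± 0.12 in KO cortex and 1.65 ± 0.31 in WT cortex (SD, n = 3 each). The groups did not overlap in either tissue, with an exact two-sided permutation p of 0.1, the smallest that 3 against 3 allow, and this pair was chosen after its values were seen. In WT cortex library 2 the ratio was 1.29, against 1.81 and 1.84 in the other WT cortex libraries, whose mean was 1.83 ± 0.02 (SD, n = 2). Across all 43 members the ratio of WT cortex library 2 to the other WT cortex libraries had a Spearman rho of -0.45 with the hippocampus log2 fold change, and -0.27 across the 36 nuclear members, over genes that share their libraries.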
